A study of Homo sapiens with 12 samples.

Results

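The loss of YTHDF1 was followed in ARID1A-depleted A549 cells, which are an established human line grown from a lung adenocarcinoma. Of the 12 RNA-seq libraries of the series, 6 belong to this comparison. 3 came from cells given small interfering RNA against ARID1A (genotype label ARID1A knockdown, called siARID1A below), and 3 from cells with the same silencing in which YTHDF1 was knocked out as well (genotype label YTHDF1 knockout, ARID1A knockdown, called the combined group). By label both groups therefore carry the ARID1A silencing and differ in YTHDF1. Their libraries also differed along the whole of chromosome 2, as described below. The members were chosen by these labels alone, and the same knockout without silencing (3 YTHDF1 KO against 3 unmodified WT libraries) served as the background in which its effect could be compared. The genotype field says YTHDF1 knockout but the sample titles write knockdown, no label tells a clone from a pool, and a control small interfering RNA is not named. The titles number the libraries as biological replicates, but nothing says that they were separate cultures, so p-values measure the spread between libraries, which may be technical.

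YTHDF1 is a reader protein that binds N6-methyladenosine (m6A), a common modification of messenger RNA, and is best known for its part in the translation and turnover of methylated transcripts. ARID1A is the largest subunit of the BAF form of the SWI/SNF chromatin remodeller and is often mutated in cancer. The series title links YTHDF1 to R-loops, which are hybrids of RNA and DNA left behind by transcription, and to innate immunity. RNA or DNA in the wrong compartment is detected by RIG-I, MDA5 or cGAS, whose signals through MAVS or STING switch on type I and type III interferons. Secreted interferons act through JAK kinases, STAT2 and IRF9 on a regulatory sequence, the interferon-stimulated response element, in front of antiviral genes.

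The letters of that element stand before several of the genes that rose most. Below are stretches from the RefSeq promoters (GRCh38.p14) of 4 of the 12 genes with the largest rises, each read 5′ to 3′ on the strand of its gene, with the core in capitals where it occurs on either strand. The core was searched as GAAA, any 2 bases, and GAAA again, which reads on the other strand as TTTC, any 2 bases, and TTTC. They were shown because the match lies outside annotated exons.
ISG15: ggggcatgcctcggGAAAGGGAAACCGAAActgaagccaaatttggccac (chr1:1013370-1013419, + strand)
IFI27: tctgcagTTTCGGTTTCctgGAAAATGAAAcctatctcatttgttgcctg (chr14:94110621-94110670, + strand)
IFI44: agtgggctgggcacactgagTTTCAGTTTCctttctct (chr1:78649751-78649788, + strand)
IFI6: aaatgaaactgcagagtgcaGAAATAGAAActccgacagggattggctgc (chr1:27672256-27672305, - strand)
Overlapping matches in ISG15 share bases. Within 250 bases before the start site, the core was present on either strand in 3.07% of the 27305 promoters in the table and in 2.39% of the 12346 promoters that matched a gene tested. Among promoters of all genes that rose it was present in 3.5% (90 of 2570), and of all that fell in 1.48%. Among promoters of genes that rose by more than 2 on the log2 scale it was present in 18.2% (27 of 148), among those that fell by more than 2 in 2.16% (5 of 231), and among genes that did not pass the test in 2.29%. Of 58 interferon-stimulated genes tested, 45 had a promoter in the table and 27 of these (60.0%) held the core. OAS2, OASL and IFIT2 rose more than the 4 genes shown and were not among the 27. Each had either no core in the bases searched or no promoter in the table. A match describes the letters only.

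Levels are given as CPM, a gene's counts relative to its library total as scaled by the TMM method, and changes as log2 fold changes of the combined group over siARID1A with the standard error (SE) between libraries. A gene is said to rise or fall when the adjusted p of edgeR's quasi-likelihood test was under 0.05. Library totals ran from 32380546 to 33704679 counts in siARID1A and from 30220717 to 41396019 in the combined group, and 18524 genes had enough counts to test. Of these 3370 rose (18.2%) and 3193 fell (17.2%), 6563 in all (35.4%). The median change over all genes was 0.01. With plain library totals in place of TMM, the median moved by 0.075 and 62.21% of the called genes were rises, against 51.35% here. Past 1 on the log2 scale lay 757 rises (4.09%) and 1006 falls (5.43%). For 6348 genes (34.3%) the call came with no overlap between the 3 libraries of each group. Among the 14048 protein-coding genes tested 22.2% rose and 19.8% fell, and among 2765 long noncoding genes 5.86% and 10.1%. The lists of genes named below were chosen with earlier results of these data known. Their counts are descriptions, to be read against the shares over all genes and over protein-coding genes.

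Both targeted transcripts were low where the labels say. YTHDF1 (chromosome 20) stood at 98.4, 102 and 93 CPM in the siARID1A libraries and 32.2, 30.4 and 30.2 in the combined ones, a fall of 1.66 (SE 0.0497, adjusted p = 5e-15), and the groups were far apart. ARID1A stood at 44.9, 41 and 41.6 CPM in siARID1A and 46.7, 58.3 and 57.6 in the combined group, against 168, 176 and 148 in WT. It was thus silenced in both groups, and less so in the combined one, by 0.35 (SE 0.112, adjusted p = 0.00214). The part of this difference in the results below was not tested. The other cytosolic readers of the family rose little: YTHDF2 by 0.24 (adjusted p = 0.00687) and YTHDF3 by 0.16 (adjusted p = 0.0463), and the YTHDF3 call was lost in several alternatives. ARID1B, the paralog that can take the place of ARID1A in the complex, rose from 71.5, 65.2 and 63.4 to 79, 94 and 94.9 CPM, by 0.42 (SE 0.101, adjusted p = 0.00011).

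The labelled epithelial line was checked on its markers. Keratin genes were abundant in every library, with KRT8 at 3913, 2950 and 3995 CPM in siARID1A and 1836, 1844 and 1735 in the combined group, and CDH1, which encodes E-cadherin, at 179.6, 153 and 179 and 108, 110.1 and 109.6. EPCAM was low, at 8.43, 6.27 and 9.73 and 1.76, 1.45 and 1.76 CPM, and KRT19 was lower still. Of 36 markers of blood, endothelial, stromal and other cells, 8 (among them CD3D, CD3E, MS4A1, CDH5, MYOD1 and INS) had no count in any of the 6 libraries and 26 stayed under 1 CPM in all of them. Their summed level was 49.7 to 55.0 CPM in siARID1A and 46.3 to 53.4 in the combined group. Of the 14 with enough counts to test 3 rose and 4 fell, named after their values were seen: SYP (1.28), RBFOX3 (0.81) and PECAM1 (3.08) rose, and ACTA2 (-0.75), CD8A (-1.43), ITGAM (-1.17) and PAX8 (-0.82) fell. In bulk RNA, fewer cells of a kind and less RNA per cell cannot be told apart.

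The most pronounced change was a rise of interferons and of the genes they induce. Interferon beta, lambda 1, lambda 2 and lambda 3 went from no more than 2 counts over the siARID1A libraries to between 609 and 1437 in the combined group. Of 58 interferon-stimulated genes tested, 53 rose and 1 fell, with a median of 2.03 (0.01 over all genes), and all 12 of the largest rises among genes of at least 10 CPM were of this kind or a chemokine. Those 12 were chosen among genes whose groups did not overlap.

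IFNB1, the type I interferon most cells make first, had 0 counts in siARID1A and 609 in the combined group (6.56, 4.92 and 4.79 CPM by library). With 3 counts over the group as the floor, this is at least 176-fold higher. IFNL1, a type III interferon of epithelial cells, had 0 and 1117 counts, with 10.8, 9.26 and 9.55 CPM in the combined libraries, at least 322-fold higher. For IFNL2 (2 and 1006 counts) the ratio was 435, with a 95% counting interval of 120 to 3600, and for IFNL3 (2 and 1437 counts) it was 622 (172 to 5140). IFNL2 and IFNL3 are near-identical copies, so their split is uncertain. These intervals and floors cover counting error only. IFNE, of the same family, rose by 0.96 (SE 0.43, adjusted p = 0.012), with libraries at 0.786, 0.909 and 1.54 and 1.25, 2.67 and 2.34 CPM that overlapped. The receptor genes did not rise: IFNAR1 changed by 0.13 (adjusted p = 0.21), IFNLR1 by 0.04 (adjusted p = 0.902), and IFNGR1, a chain of the interferon gamma receptor, fell by 0.57 (SE 0.112, adjusted p = 0.000166).

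Upstream of the interferons, 10 of 17 genes of RNA sensing rose and 1 fell (median 0.31). RIGI, which encodes the sensor RIG-I, stood at 19.6, 21.6 and 23.5 CPM in siARID1A and 179, 164 and 179 in the combined group, a rise of 3.01 (SE 0.0859, adjusted p = 4.74e-18). IFIH1, which encodes the sensor MDA5 and lies on chromosome 2, went from 11.7, 9.9 and 11.6 to 95.5, 77.4 and 84.6 CPM, by 2.95 (SE 0.117, adjusted p = 1.34e-15), and DHX58, the third gene of this helicase family, from 0, 0.439 and 0.266 to 7.81, 6.61 and 6.23 CPM. In all of these the groups did not overlap. ADAR, which edits double-stranded RNA, rose by 0.46 (adjusted p = 1.13e-05), and ZC3HAV1, an antiviral protein that binds viral RNA, by 0.48 (adjusted p = 2.04e-06). MAVS, the adaptor of RIG-I and MDA5, was the 1 member that fell (log2 change -0.40, adjusted p = 4.16e-05). It was named after its value was seen. Sensor genes are themselves induced by interferon.

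On the DNA side, 6 of 13 genes rose and 4 fell (2 without combined replicate 3). STING1, the adaptor of cytosolic DNA sensing, stood at 0.967, 1.07 and 1.01 CPM in siARID1A and 4.96, 3.61 and 4.23 in the combined group, a rise of 2.07 (SE 0.136, adjusted p = 5.13e-06). IFI16, a DNA-binding sensor, rose from 3.57, 4.2 and 4.43 to 13.2, 14.4 and 14.7 CPM (1.79, SE 0.104, adjusted p = 3.84e-10). CGAS, the enzyme that makes the messenger cGAMP on DNA, was hardly present, at 0.302, 1 and 0.473 CPM in siARID1A and 0.126, 0.0469 and 0.101 in the combined group. Its fall of 2.69 (SE 0.522, adjusted p = 0.0186) rests on few counts, and the call was lost without siARID1A replicate 2 (adjusted p = 0.15), combined replicate 2 (0.101) or combined replicate 3 (0.0625). ENPP1, which degrades cGAMP, rose by 0.90 (adjusted p = 2.28e-05) and SAMHD1, which depletes deoxynucleotides, by 0.78 (adjusted p = 7.2e-08). RNASEH1, the nuclease that removes RNA from R-loops, lies on chromosome 2 and fell by 0.62 (adjusted p = 5.84e-08). Its exons overlap RNASEH1-DT on the opposite strand, and whether the counting used strand is not stated.

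Downstream, 10 of 17 genes of interferon signalling rose and 1 fell (median 0.28). IRF7, the factor that amplifies interferon genes, stood at 6.89, 5.08 and 5.03 CPM in siARID1A and 39.7, 37.4 and 35.5 in the combined group (2.73, SE 0.155, adjusted p = 1.13e-14). STAT2 rose from 34, 30.8 and 32.6 to 66.5, 58.4 and 66.6 CPM (0.98, adjusted p = 3.78e-10), with separate groups. JAK2 rose by 1.08 (adjusted p = 3.33e-08). Among the brakes on the pathway, USP18 rose by 1.41 (adjusted p = 2.32e-12) and PTPN2 by 0.90 (adjusted p = 3.02e-08).

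Of the induced antiviral genes, all 4 of the oligoadenylate synthetase family rose, by very different amounts. OAS2 stood at 0.756, 0.564 and 1.24 CPM in siARID1A and 103, 103 and 111 in the combined group, a rise of 6.93 (SE 0.314, adjusted p = 1.49e-21). OASL, a family member that binds RIG-I, went from 2.18, 2.44 and 2.54 to 299.8, 268 and 266 CPM (6.86, SE 0.0866, adjusted p = 1.61e-24). OAS1 and OAS3, named after their values were seen, rose by 1.503 and 1.44.

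The IFIT genes, whose products hold back foreign RNA lacking a proper cap, rose together. IFIT1 was 9.85, 13.5 and 13.4 CPM in siARID1A and 511, 458 and 492 in the combined group (5.32, SE 0.156, adjusted p = 1.02e-22). IFIT2 went from 5.2, 6.08 and 6.18 to 387, 309 and 338 CPM (5.89, adjusted p = 1.02e-21), though its exons overlap those of LIPA on the other strand, and IFIT3 from 5.32, 9.31 and 7.39 to 292, 251 and 270.3 (5.21, adjusted p = 1.15e-13).

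ISG15, a ubiquitin-like modifier, stood at 8.01, 6.77 and 7.33 CPM and 190.5, 169.7 and 158 (4.55, SE 0.104, adjusted p = 1.62e-17). IFI6 was the member with the highest siARID1A level of this set, 17.8, 16.9 and 19.3 CPM, and stood at 452, 434 and 413 in the combined group (4.59, adjusted p = 1.02e-22). IFI27 rose from 1.27, 0.689 and 1.21 to 49.3, 50.6 and 46.9 CPM, IFI44L from 0.453, 0.752 and 0.473 to 23.5, 24.8 and 26.9, IFI44 from 0.635, 0.815 and 1.66 to 29.3, 28.4 and 31.2, and IFITM3, a membrane protein that blocks viral entry, from 0.967, 0.689 and 0.828 to 22.2, 24.4 and 19.6. For these 4 the changes were 5.52, 5.48, 4.83 and 4.73, with adjusted p between 3.45e-19 and 7.66e-15. The 4 promoter stretches printed above belong to ISG15, IFI27, IFI44 and IFI6. IFITM1 had 1 count in siARID1A and 366 in the combined group, a ratio of 317 (56.5 to 12500), and RTP4 had 0 and 58, at least 16.7-fold higher. APOL1, SP110, SP100 and GBP2 did not pass the test, with changes of 0.14, 0.04, -0.06 and -0.49, and CGAS was the 1 fall in the list. These 4 were named after their values were seen. The plot of interferon response genes by library shows these levels together.

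**Figure D1:**
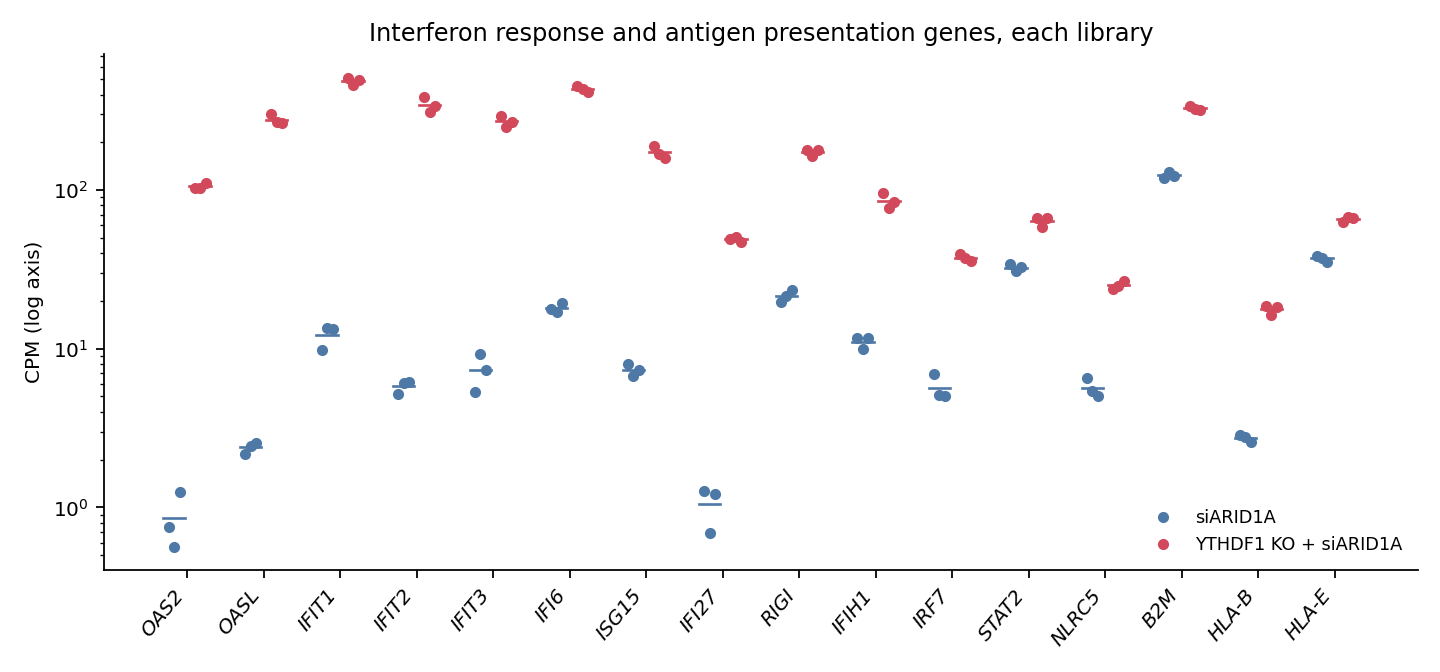
Level of 16 genes of the interferon response and of antigen presentation in each library, as CPM on a log axis; blue points are the 3 siARID1A libraries, red points the 3 combined libraries, and bars the group means. Red lies above blue for every gene shown, which the choice of genes fixed, since only genes that rose were plotted. Members that fell or did not pass, such as MAVS, CGAS and GBP2, are not shown. OAS2 and OASL are farthest apart and HLA-E and STAT2 closest.

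Chemokines and cytokines rose in 15 of 25 genes tested and fell in 2 (median 0.75). CCL5, which attracts T cells, stood at 0.121, 0.313 and 0.296 CPM in siARID1A and 156, 134 and 122 in the combined group (9.12, SE 0.361, adjusted p = 1.02e-22), the largest rise of any gene of at least 10 CPM without overlap. CXCL10 went from 0.0604, 0 and 0.177 to 11.1, 10.3 and 10.03 CPM (6.96, adjusted p = 1.61e-13). CXCL11, a ligand of the same receptor CXCR3, had 2 counts in siARID1A and 1595 in the combined group, a ratio of 690 (191 to 5700). CXCL1, which attracts neutrophils, rose from 20.4, 20.02 and 23.5 to 92.3, 87.5 and 79.7 CPM (2.02, adjusted p = 2.99e-15). IL18 fell from 127, 139 and 134 to 60.1, 59 and 57.6 CPM (-1.18, SE 0.0442, adjusted p = 1.43e-12). IL32, named after its value was seen, fell by 0.91.

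NF-kB genes did not move as a block. Of 21 tested, 4 rose and 6 fell, with a median of -0.09. ICAM1 (chosen after its value was seen), NFKBIZ, IER3 and BCL3 rose, by 2.46, 1.83, 1.29 and 0.76. NFKBIE and TNIP1, inhibitors of the pathway, fell (log2 changes -0.73, adjusted p = 0.000107, and -0.51, adjusted p = 2.35e-05). NFKB1, RELA and TNFAIP3 changed by -0.10, 0.10 and -0.17, and none of these passed the test.

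Genes that present antigen on MHC class I rose in 15 of 21 cases and fell in 1 (median 0.47). B2M, the light chain of every class I molecule, stood at 118, 129.6 and 124 CPM in siARID1A and 341, 325 and 319.7 in the combined group (1.41, SE 0.0466, adjusted p = 1.31e-14). NLRC5, the transcriptional activator of class I genes, rose from 6.5, 5.39 and 5.06 to 23.6, 25 and 26.5 CPM (2.15, adjusted p = 9.93e-12), and the peptide transporter gene TAP1 from 54.2, 61.5 and 54.2 to 83.5, 77.6 and 84.4 (0.53, adjusted p = 2e-06). HLA-B rose from 2.87, 2.76 and 2.57 to 18.7, 16.2 and 18.3 CPM and HLA-E from 38.5, 37.4 and 35.2 to 63, 68 and 66.4. HLA genes are similar in sequence and vary between people, so counts of 1 HLA gene may hold reads of another. Of 5 class II genes tested, CD74, HLA-DMB and CTSS rose, from at most 10 CPM.

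Surface proteins that regulate immune cells moved both ways, 9 up and 6 down of 23. CD274, which encodes PD-L1, stood at 1.27, 1.69 and 1.15 CPM in siARID1A and 3.11, 3.92 and 3.68 in the combined group (1.38, SE 0.188, adjusted p = 3.9e-05), low in both. IDO1, an enzyme that depletes tryptophan, had 0 counts and 177, at least 51.1-fold higher. CEACAM1 rose by 2.49 (adjusted p = 1.43e-09), NT5E, which encodes CD73, by 1.24 (adjusted p = 2.32e-11), and NECTIN2 by 0.59 (adjusted p = 5.87e-08). CD24, a signal that restrains macrophages, fell from 805, 667 and 842 to 293, 281 and 287 CPM (-1.42, SE 0.104, adjusted p = 2.06e-13), and VSIR, which encodes VISTA, from 70.8, 74.8 and 71.4 to 39.9, 31.1 and 38.1 (-0.99, adjusted p = 7.77e-10).

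Of 35 p53 target genes 26 fell and 2 rose, with a median of -0.52, the highest share of falls in any list. CDKN1A, which encodes the cell cycle inhibitor p21, stood at 409, 482 and 487 CPM in siARID1A and 233, 221 and 225 in the combined group (-1.02, SE 0.0841, adjusted p = 1.43e-11). In WT it was 159, 156 and 159.6 CPM and in YTHDF1 KO 175, 176 and 176, so siARID1A was the highest group. TP53I3, an oxidoreductase gene on chromosome 2, was also highest there, with 93.1, 75.5 and 73.9 CPM in WT, 74.8, 79.2 and 73.6 in YTHDF1 KO, 244, 268 and 245 in siARID1A and 87.8, 84.3 and 79.4 in the combined group (-1.59, SE 0.0608, adjusted p = 4.83e-14). ZMAT3 fell (-0.998, adjusted p = 6.99e-09), as did PHLDA3 (-0.83, adjusted p = 1.08e-09) and CYFIP2, whose exons overlap ADAM19 (-1.01, adjusted p = 4.75e-11). MDM2 and BAX fell (log2 changes -0.50 and -0.40). PMAIP1, which encodes NOXA, and GDF15 rose, by 1.63 and 0.86. These 4 were named after their values were seen.

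Genes of DNA replication and repair rose, by modest amounts. Of 48 replication and S phase genes 27 rose and 2 fell (median 0.25), and of 47 genes of double-strand break and Fanconi repair 26 rose and 0 fell (median 0.29). By edgeR no repair gene fell; 1 had an unadjusted p under 0.05 in that direction, DESeq2 called 0, and edgeR called 1 with the 6 libraries alone, with a stricter filter and without WT replicate 2. GINS4, a part of the replicative helicase, went from 35.4, 30.2 and 28.5 to 67, 69.1 and 67.1 CPM (1.11, SE 0.0953, adjusted p = 9.07e-11), CDC6, a licensing factor, from 95.8, 86.8 and 81.1 to 124, 134 and 124 (0.54, adjusted p = 7.99e-07), and SLBP, which binds histone mRNA, from 20.8, 20.6 and 19.4 to 29.3, 30.01 and 30.2 (0.56, adjusted p = 1.79e-06). CHEK2, a checkpoint kinase gene whose exons overlap HSCB, rose from 20.6, 20.02 and 19.1 to 45.4, 37.5 and 38.8 CPM (1.03, adjusted p = 9.38e-10), BRCA2 from 15.2, 15.6 and 17.1 to 24.5, 27.2 and 29.8 (0.76, adjusted p = 3.51e-06), and NBN, a subunit of the complex that senses breaks, from 89.3, 87.2 and 85.7 to 116, 125 and 125 (0.48, adjusted p = 3.83e-06). Groups were separate in each of these genes. Of 42 mitotic genes 11 rose and 3 fell. CDC25B, a phosphatase that starts mitosis, rose by 1.15 (adjusted p = 9.42e-12) and CDK1 by 0.37 (adjusted p = 0.00015). MKI67 changed by 0.13 and did not pass. Without siARID1A replicate 3 the mitotic falls were 8, and with library totals the rises were 17.

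R-loop factors, the theme of the series title, rose in 16 of 40 cases and fell in 4 (median 0.17). ERCC4, a nuclease subunit, rose from 30.2, 33.2 and 34.1 to 53.5, 52.4 and 54.9 CPM (0.72, SE 0.056, adjusted p = 2.89e-07). BRCA1, whose exons overlap another transcript on its strand, rose by 0.55 (adjusted p = 7.36e-06). Besides RNASEH1, the helicase gene DDX1 fell from 228, 237 and 224 to 156, 147 and 150.0 CPM (-0.61, adjusted p = 3.45e-08), and both lie on chromosome 2. RNASEH2C and DDX39A were the other 2 that fell (log2 changes -0.42 and -0.27), named after their values were seen.

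In the m6A machinery apart from YTHDF1 itself, changes were small: 8 of 26 genes rose and 3 fell, YTHDF1 included. The rises were 13 with library totals, and 5 with no filter, without chromosome 2 genes, or without siARID1A replicate 1, 2 or 3 or combined replicate 2. METTL3, the catalytic writer, rose by 0.28 (adjusted p = 0.00283; its exons overlap TOX4), FMR1 by 0.37 (adjusted p = 0.000153), and IGF2BP1, a reader that stabilises its targets, fell from 207, 211 and 195 to 140.1, 150.2 and 156 CPM (-0.46, adjusted p = 8.95e-06). Among 27 SWI/SNF subunits 7 rose and 3 fell (1 without siARID1A replicate 2 or combined replicate 2). SMARCA2, an ATPase of the complex, fell from 58, 51.7 and 50.7 to 31.7, 32.3 and 35.6 CPM (-0.69, SE 0.0797, adjusted p = 1.7e-07), and PBRM1 rose by 0.44 (adjusted p = 5.19e-05).

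Of 39 NRF2 target and redox genes 28 fell and 2 rose (median -0.48). NRF2 is the factor that drives antioxidant genes and is constitutively active in A549, which carries a KEAP1 mutation. AKR1B10, an aldo-keto reductase, stood at 2522, 2751 and 3301 CPM in siARID1A and 396, 308 and 334 in the combined group (-3.05, SE 0.156, adjusted p = 1.46e-15). The related AKR1C1, AKR1C2 and AKR1C3, close paralogs whose counts may be shared, fell too (log2 changes -2.66, -2.37 and -1.98), as did AKR1B1 (-1.41), all without overlap. NQO1 and ALDH3A1 rose, by 0.62 (named after its value was seen) and 0.58 (adjusted p = 3.28e-06). In the drug-metabolising families of cytochrome P450 and aldehyde dehydrogenases, 12 of 28 fell and 2 rose. CYP4F11, a fatty acid hydroxylase, went from 14.6, 13.1 and 17.9 to 0.376, 0.234 and 0.428 CPM (-5.46, SE 0.261, adjusted p = 2.17e-16).

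Of 36 genes of the ATF4 and unfolded protein responses 22 rose and 6 fell (median 0.37). HSPA5, which encodes the chaperone BiP, stood at 746, 736 and 724 CPM in siARID1A and 1154, 1266 and 1210 in the combined group (0.72, SE 0.0407, adjusted p = 1.42e-08). PDIA4, a disulfide isomerase, rose from 357, 361 and 349 to 609, 695 and 617 CPM (0.85, adjusted p = 5.05e-10), and CRELD2, whose exons overlap ALG12, by 1.21 (adjusted p = 5.33e-12). The amino acid transporter genes SLC7A5 and SLC3A2 went the other way, SLC7A5 from 4018, 4008 and 3536 to 2020, 2269 and 2254 CPM (-0.82, adjusted p = 1.85e-08) and SLC3A2 by -0.74. Cytosolic heat shock genes fell in 8 of 21 cases and rose in 1. CRYAB, a small heat shock protein gene, fell from 16.4, 10.5 and 25.4 to 1.38, 0.985 and 1.71 CPM (-3.68, SE 0.43, adjusted p = 1.71e-09), with the widest spread in siARID1A, and HSPB8, its partner, from 21, 21.4 and 19.96 to 5.21, 4.9 and 5.37 (-2.01, adjusted p = 3.4e-12).

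Cholesterol and fatty acid synthesis genes rose in 17 of 32 cases and fell in 3 (median 0.30). SCD, the desaturase that makes oleate, went from 1287, 1005 and 1280 to 2415, 2922 and 2749 CPM (1.18, SE 0.143, adjusted p = 1.82e-10), STARD4, a sterol carrier, from 31.2, 29.9 and 36.2 to 59.1, 59.2 and 59.7 (0.87, adjusted p = 2.62e-08), and IDI1 rose by 0.70 (adjusted p = 4.84e-08). ACLY, which supplies acetyl-CoA, fell from 1395, 1242 and 1173 to 788, 936 and 897 CPM (-0.54, adjusted p = 1.35e-05). Hypoxia and glycolysis genes fell in 16 of 35 cases and rose in 3 (median -0.25). CA12, a carbonic anhydrase, fell from 694, 695 and 639 to 212, 246 and 246 CPM (-1.53, SE 0.0825, adjusted p = 2.84e-14) and PFKFB3, an activator of glycolysis, from 683, 636 and 589 to 229, 288 and 275 (-1.27, adjusted p = 3.17e-11). EPAS1, which encodes HIF-2 alpha and lies on chromosome 2, fell by 1.23 (adjusted p = 5.15e-13). SLC2A3, a glucose transporter, rose from 89.8, 65.6 and 83.9 to 299, 297 and 296 CPM (1.899, adjusted p = 4.3e-15).

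Keratin, junction and matrix genes shifted, with more falls than rises. Of 29 keratin and junction genes 12 fell and 7 rose (median -0.28), and KRT8, KRT18 and KRT7, the main keratins of these cells, fell (log2 changes -1.004, -0.87 and -0.96). PKP3, a desmosome gene, fell from 56.5, 56 and 50.3 to 20.3, 20.7 and 16.5 CPM (-1.499, SE 0.117, adjusted p = 1.98e-12). GJA1, which encodes the gap junction protein connexin 43, rose from 64.9, 76.3 and 66.1 to 199, 222 and 215 (1.62, adjusted p = 3.84e-15) and CLDN1 by 0.998 (adjusted p = 7.91e-10). Of 40 matrix genes 18 fell and 8 rose (median -0.30). LAMB3, a laminin chain, fell from 141, 138 and 146 to 36.8, 35.8 and 38.6 CPM (-1.94, SE 0.0393, adjusted p = 3.27e-17) and COL4A2, of basement membrane collagen, fell by 1.197 (adjusted p = 1.56e-11). COL12A1 rose from 113, 93.7 and 108 to 364, 484 and 482 (2.08, adjusted p = 9.32e-14).

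In the list of epithelial-mesenchymal transition genes, which holds markers of both states, 14 of 29 fell and 2 rose (median -0.276). Off chromosome 2, 11 of 23 fell and 1 rose, with a median of -0.125. TGFBI, a gene induced by TGF-beta, went from 1574, 1432 and 1286 to 388, 489 and 434 CPM (-1.71, SE 0.128, adjusted p = 1.15e-13). Members of both states were among those that fell, such as CDH1 (-0.64), EPCAM (-2.299, chromosome 2) and FN1 (-1.54, chromosome 2). Of 30 genes of the YAP and TAZ list 14 fell and 9 rose. ANKRD1, a common reporter of YAP activity, fell from 22.4, 39.8 and 25.1 to 5.77, 5.6 and 6.63 CPM (-2.28, SE 0.264, adjusted p = 1.46e-08) and AMOTL1 from 108, 94.8 and 108 to 30.02, 33.7 and 37.8 (-1.61, adjusted p = 2.18e-13), while YAP1 itself rose by 0.61 (adjusted p = 7.41e-08).

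Lineage genes of A549 and of alveolar cells fell in 15 of 28 cases and rose in 6. TM4SF4, a tetraspanin relative, went from 148, 134 and 173 to 23.1, 19.2 and 18 CPM (-2.92, SE 0.152, adjusted p = 5e-15), whereas SOX4 rose from 39.2, 30.02 and 41.9 to 133, 155 and 146 (1.97, adjusted p = 2.18e-13) and the mucin gene MUC5AC from 0.786, 0.815 and 0.65 to 6.59, 4.92 and 5.85 (2.94, adjusted p = 2.99e-11). In the complement and coagulation list 9 of 28 rose and 9 fell. F5, coagulation factor V, had the largest fall among genes of at least 10 CPM without overlap, from 41.3, 32.2 and 47.5 to 0.188, 0.422 and 0.504 CPM (-6.703, SE 0.404, adjusted p = 7.9e-18). PLAUR, the urokinase receptor, rose from 29.8, 29 and 23.9 to 86, 94.2 and 84.8 (1.68, adjusted p = 1.19e-13).

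In a list of AP-1, immediate early and MAP kinase feedback genes 12 of 28 rose and 9 fell. DUSP4, a phosphatase of MAP kinases, stood at 216, 212 and 214 CPM in siARID1A and 488, 486 and 485 in the combined group (1.18, SE 0.00763, adjusted p = 1.15e-13), with a narrow spread. ETV4, whose exons overlap DHX8, rose by 1.82 and PHLDA1 by 1.08. DUSP1 fell from 445, 548.6 and 478 to 240.4, 243 and 243 CPM (-1.02, adjusted p = 9.54e-11), and JUN and FOSL1, named after their values were seen, also fell (-0.92 and -1.47). NRG1, a ligand of the EGF receptor family, fell from 207, 213 and 199 to 85.2, 82.1 and 89.2 CPM (-1.27, SE 0.0446, adjusted p = 6.06e-14). The list of EGF receptor family and ligand genes held 4 rises and 5 falls of 13.

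Among the other large falls, CPS1, the mitochondrial enzyme that starts the urea cycle and lies on chromosome 2, stood at 220.3, 148 and 240.4 CPM in siARID1A and 8.16, 8.98 and 8.57 in the combined group (-4.56, SE 0.22, adjusted p = 1.52e-10). SLFN11, which sensitises cells to agents that damage DNA, went from 31.7, 31.7 and 30.9 to 2.01, 2.25 and 1.99 CPM (-3.91, SE 0.057, adjusted p = 1.38e-16). NTRK3, a neurotrophin receptor, fell from 39, 21.8 and 39.4 to 1.88, 2.58 and 1.16 (-4.14, adjusted p = 1.48e-06) and PCSK5, a proprotein convertase, from 49, 41.8 and 51.3 to 2.82, 2.81 and 3.25 (-3.996, adjusted p = 1.58e-18). UPK1B changed by -3.49, UNC13D, needed for release of cytotoxic granules, by -3.48, OLFML3 by -3.43, TNS1 by -3.04 and INHBB, an inhibin and activin subunit, by -3.02, all falls past the threshold. The last 2 lie on chromosome 2.

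Ribosomal protein genes changed little: 10 of 78 fell and 1 rose (median -0.14), and 4 of the 10 lie on chromosome 2. The number of falls was 33 in a fit of the 6 libraries alone, 35 without WT replicate 2 and 18 with no filter, and 2 to 5 without siARID1A replicate 1, 2 or 3 or combined replicate 2 or 3. Nuclear genes of oxidative phosphorylation fell in 6 of 72 cases and rose in 3, and 5 of the 6 falls (NDUFA10, NDUFS1, COX5B, ATP5MC3 and NDUFB3) lie on chromosome 2. The rises were 11 with library totals, 8 in the fit of 6 libraries, 10 without WT replicate 2 and 0 or 1 with a replicate block, without chromosome 2 genes, or without siARID1A replicate 1, 2 or 3 or combined replicate 1 or 3. Of 22 replication-dependent histones 1 fell and 0 rose by edgeR (0 also at an unadjusted p under 0.05 and by DESeq2), H1-2 by 0.41 (adjusted p = 0.00637). Without siARID1A replicate 2 there were 2 rises. The falls were 3 in the fit of 6 libraries, 0 without combined replicate 3, and 2 with RLE factors, a stricter filter, DESeq2, no chromosome 2 genes or no WT replicate 2. Histone transcripts lack a poly(A) tail, and the labels do not say how messenger RNA was selected. The plot of gene lists sets these counts beside the share over all genes.

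**Figure D2:**
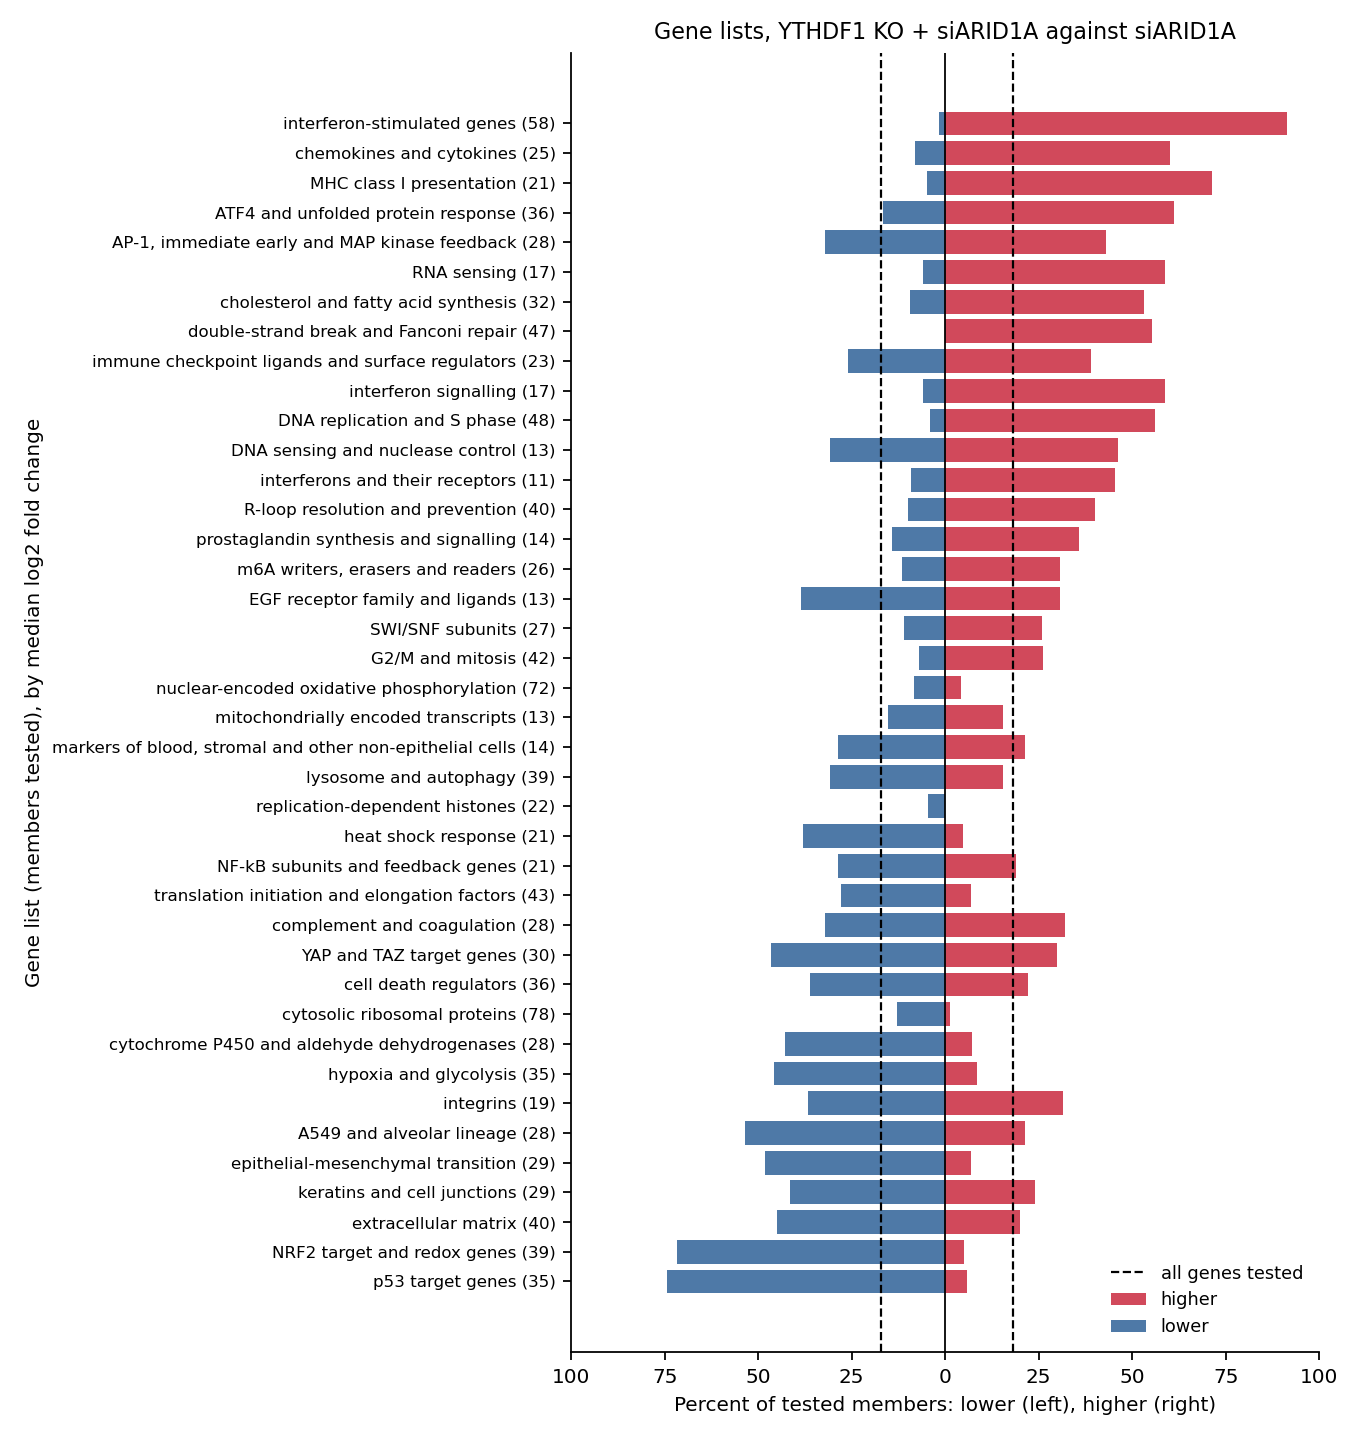
Percent of the tested members of each gene list that rose (red, right) or fell (blue, left) in the combined group against siARID1A, for lists with at least 10 members tested; numbers in brackets are members tested, lists are ordered by median log2 fold change, and dashed lines mark 18.2% and 17.2%, the shares over all 18524 genes. Interferon-stimulated genes stand at the top with 53 of 58 higher, and p53 and NRF2 target genes at the bottom with 26 of 35 and 28 of 39 lower.

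Chromosome 2 stood apart from the others. The median change of its 1231 tested genes was -0.42, a ratio of 0.746, and 52.97% of them fell while 5.44% rose. On the other nuclear chromosomes medians lay between -0.03 and 0.10. Cut along its length into 30 windows of 40 genes and a last one of 31, chromosome 2 gave negative medians in every window, from -0.73 to -0.15. Over its 653 genes with at least 10 CPM, the median relative to the other chromosomes was -0.47, -0.48 and -0.45 in the combined libraries and between -0.004 and 0.004 in the siARID1A libraries. The YTHDF1 KO libraries had values of -0.46 to -0.44 and the WT libraries of -0.03 to 0.005, so both groups with the knockout label were low across this chromosome. Off chromosome 2, 3303 of 17293 genes rose (19.1%) and 2541 fell (14.7%). The counts of the lists off chromosome 2 were 51 rises and 1 fall of 54 interferon-stimulated genes, 2 and 25 of 34 p53 targets, 2 and 27 of 38 NRF2 targets, 1 and 6 of 74 ribosomal protein genes, and 3 and 1 of 67 oxidative phosphorylation genes. Of 19 integrins 6 rose and 7 fell, while 6 rose and 3 fell among the 15 off chromosome 2. The part of this shift in the change of any single gene on chromosome 2 was not tested. Changes off chromosome 2, those of the lists included, cannot be told apart from other differences between cells with and without the knockout label.

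**Figure D3:**
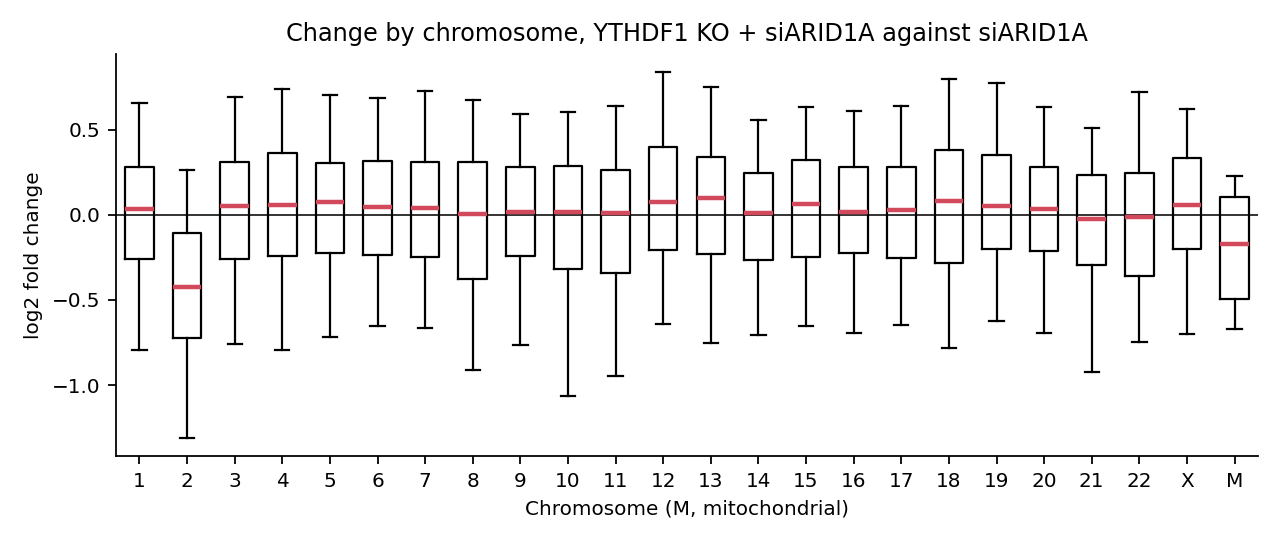
Log2 fold change of the genes tested in the combined group against siARID1A, by chromosome (M, mitochondrial); boxes span the quartiles, red lines are medians and whiskers reach the 10th and 90th percentiles. Chromosome 2 has a median of -0.42, while every other nuclear chromosome lies within 0.10 of 0.

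The same knockout was also compared in cells without ARID1A silencing (YTHDF1 KO against WT), which shares no library with the comparison above. There 3630 genes rose (19.6%) and 3859 fell (20.8%). 4254 genes passed the test in both backgrounds, 1930 rising in both, 2011 falling in both and 313 in opposite directions. The 3941 genes called in the same direction made up 60.05% of the calls in silenced cells and 52.62% of those in unmodified cells. Across the 9557 genes with a mean of at least 10 CPM the 2 changes had a Pearson r of 0.778, and across all genes tested the Pearson r was 0.639 and Spearman's rho 0.515. These are descriptions across genes, which are not independent of each other and include the shared shift of chromosome 2. Both groups with the knockout label carried that shift. A change found in both backgrounds therefore cannot be told apart from another trait shared by the cells of those groups. The difference between the 2 effects was then tested gene by gene. The change was more positive in silenced cells for 1644 genes (8.87%) and more negative for 1523 (8.22%), 3167 in all (17.1%). Chromosome 9 stood apart here. Its median change was -0.36 in unmodified cells and 0.02 in silenced ones. Over its 385 genes with at least 10 CPM, the level relative to chromosomes other than 2 and 9 was 0.41 to 0.44 above the siARID1A mean in the WT libraries, and between -0.06 and 0.01 in the other 9, so WT was the group apart. On this chromosome 245 of 712 genes had a positive difference (34.4%) and 25 a negative one (3.51%), against 1399 (7.85%) and 1498 (8.41%) of 17812 elsewhere. RIGI, HSPA5 and ASS1, described below, lie on it, and the part of the shift in their differences was not tested. Leaving out chromosome 9 genes does not remove this limit. A difference between backgrounds anywhere in the genome cannot be told apart from other differences between WT and the other cells.

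The interferon response was present in both backgrounds and differed in detail. Of the 58 interferon-stimulated genes, 51 rose in unmodified cells, where the median was 1.75. The test of the difference called 18 more positive and 14 more negative in silenced cells. IFIT1 rose by 6.396 in unmodified cells, from 1.95, 1.68 and 2.07 to 159, 157 and 161 CPM, and by 5.32 in silenced cells. The level was thus higher in the combined group than in YTHDF1 KO, while the fold was smaller (difference -1.08, adjusted p = 1.36e-05). The level in siARID1A was also higher than in WT. OAS2 and IFI44 also had smaller folds in silenced cells, with differences of -2.33 (adjusted p = 0.00498) and -2.14 (adjusted p = 0.00249). Both stood low in siARID1A, as given above, and a fold from a low level is imprecise. IFI27 and IFITM3 had larger ones, by 1.46 (adjusted p = 0.000336) and 1.34 (adjusted p = 0.00144). Among sensors, RIGI rose by 1.95 in unmodified and 3.01 in silenced cells (difference 1.06, adjusted p = 1.6e-06), while IFIH1 rose by 3.74 and 2.95 (difference -0.79, adjusted p = 0.00379). B2M reached 161, 175 and 164 CPM in YTHDF1 KO, below each combined library, and its rise was larger in silenced cells by 0.75 (adjusted p = 2.67e-06), as was that of NLRC5, by 1.66 (adjusted p = 2.67e-06). CCL5 had 2 counts over the WT libraries and 5173 in YTHDF1 KO, too few in WT to compare its folds.

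For p53 targets the backgrounds parted. In unmodified cells 11 of the 35 rose and 4 fell (median 0.16), and the test of the difference called 27 more negative and 0 more positive in silenced cells by edgeR (0 more positive also at an unadjusted p under 0.05 and by DESeq2). CDKN1A changed by 0.15 in unmodified and -1.02 in silenced cells (difference -1.17, adjusted p = 6.8e-09), and TP53I3 by -0.09 and -1.59 (difference -1.498, adjusted p = 1.37e-09). In mitotic genes the difference was positive in 20 of 42 and negative in 0 by edgeR (0 also at an unadjusted p under 0.05 and by DESeq2), with 2 rises and 23 falls in unmodified cells against 11 and 3 here. In S phase genes it was positive in 24 of 48 and negative in 1, and in repair genes positive in 20 of 47 and negative in 2 (18 and 2 of 45 off chromosome 9). BRCA2 changed by -0.15 and 0.76 (difference 0.91, adjusted p = 0.000104).

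Stress genes also differed by background. In the ATF4 and unfolded protein response list the difference was positive in 20 of 36 and negative in 2 (18 and 2 of 34 off chromosome 9). HSPA5 stood at 1936, 1978 and 2028 CPM in WT, 1387, 1530 and 1452 in YTHDF1 KO, 746, 736 and 724 in siARID1A and 1154, 1266 and 1210 in the combined group (difference 1.16, adjusted p = 1.38e-08). It fell with the knockout in unmodified cells and rose in silenced ones. CRYAB stood at 0.325, 0.486 and 0.44 CPM in WT and 0.524, 0.484 and 0.337 in YTHDF1 KO, so siARID1A was the high group (difference -3.79, adjusted p = 4.78e-05). For NRF2 targets there were 5 rises and 27 falls of 39 in unmodified cells against 2 and 28 in silenced ones, and the difference was positive in 4 and negative in 8.

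The 8 strongest positive differences were taken among genes that averaged at least 10 CPM over the 12 libraries. Several were in genes that fell in unmodified cells and stood low in siARID1A. A high WT or low siARID1A level raises this difference by construction, so the ranking itself favours such genes. FER1L6, whose exons overlap FER1L6-AS2, stood at 81.7, 83.1 and 87.1 CPM in WT and 0.105, 0.194 and 0.281 in YTHDF1 KO, 0.302, 0.188 and 0.325 in siARID1A and 0.0941, 0.281 and 0.353 in the combined group (difference 8.65, adjusted p = 1.91e-10). TINAGL1 was 47.5, 51.5 and 42.8 CPM in WT, 7.67, 6.51 and 7.05 in YTHDF1 KO, 6.74, 6.83 and 6.71 in siARID1A and 4.89, 5.23 and 5.77 in the combined group (difference 2.39, adjusted p = 1.91e-10). ASS1, of arginine synthesis, changed by -2.51 in unmodified and 0.05 in silenced cells, and IQGAP2, whose exons overlap F2RL2, by -2.12 and 0.08. PKDCC (chromosome 2) and NTRK3 fell in both, PKDCC by -5.18 and -2.200 and NTRK3 by -6.95 and -4.14 on the log2 scale. RHOV turned around, with changes of -0.76 and 1.24 (difference 1.996, adjusted p = 1.06e-07).

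Within the same limit on level, the 8 strongest negative differences were in genes that stood higher in siARID1A than in WT. A high siARID1A or low WT level lowers this difference by construction, so the ranking itself favours such genes. ANKRD1 was 2.1, 2.21 and 3.08 CPM in WT, 5.84, 6.77 and 4.72 in YTHDF1 KO, 22.4, 39.8 and 25.1 in siARID1A and 5.77, 5.6 and 6.63 in the combined group, so it rose with the knockout in unmodified cells and fell in silenced ones (difference -3.52, adjusted p = 7.84e-08). FGFBP1 changed by 2.37 and -0.58, MYPN by 2.35 and -0.54, and FA2H by 1.54 and -0.96. PTGS2, which encodes COX-2, rose in both, by 3.67 from 10.6, 12.5 and 16.4 CPM in WT and by 0.83 from 237, 191 and 344 in siARID1A (difference -2.84, adjusted p = 8.76e-05). Carboxypeptidase M, whose gene CPM overlaps MDM2, a p53 target, on the other strand, changed by 1.52 and -0.83 (difference -2.35, adjusted p = 1.17e-10). UPK1B stood at 25.8, 25.5 and 25.1 in siARID1A and at 2.82, 3.6 and 3.05 in WT, 2.23, 2.13 and 2.02 in YTHDF1 KO and 2.23, 2.2 and 2.34 in the combined group (difference -2.92, adjusted p = 4.04e-10).

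**Figure D4:**
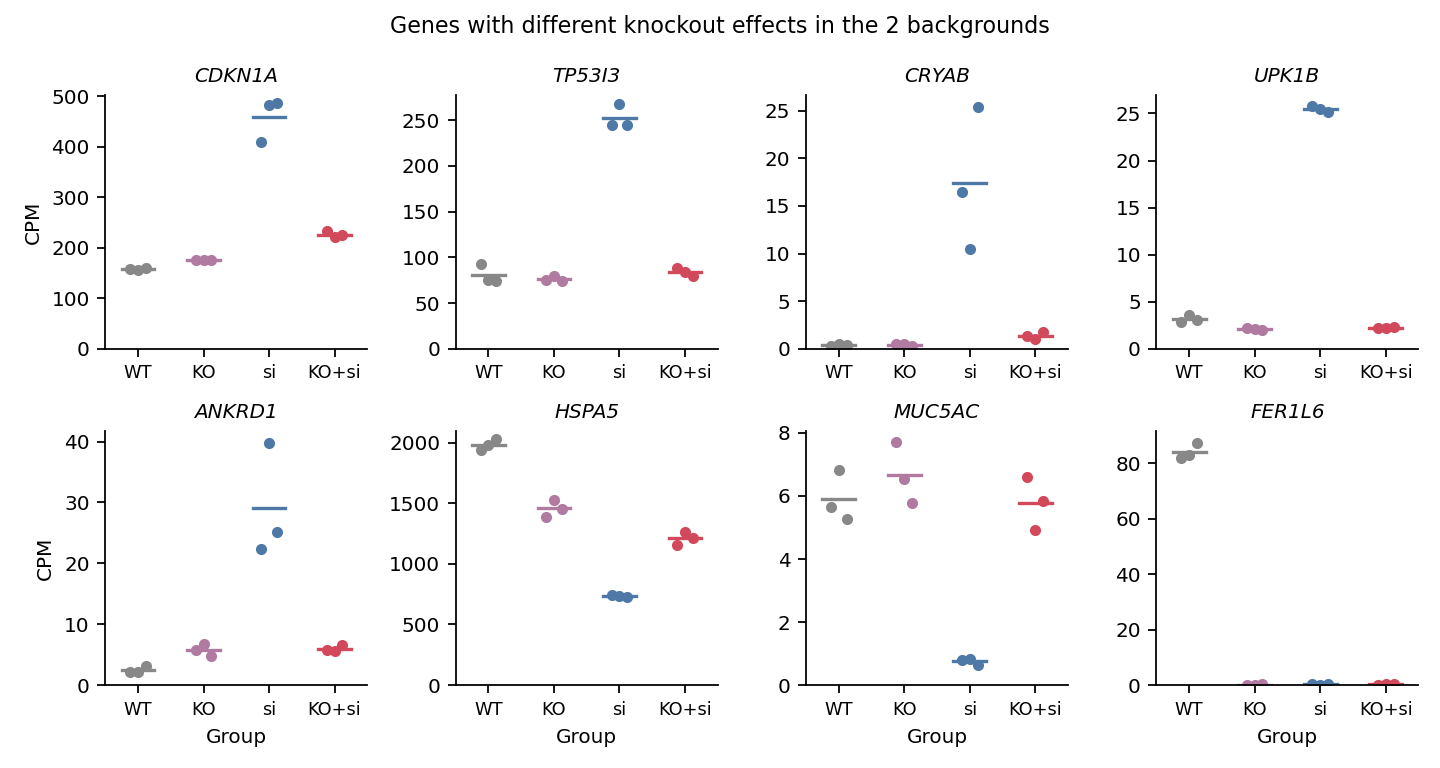
Level of 8 genes in every library of the 4 groups (WT, YTHDF1 KO, siARID1A and both; CPM on a linear axis from 0, points are libraries and bars group means). CDKN1A, TP53I3, CRYAB, UPK1B and ANKRD1 are highest in siARID1A, HSPA5 and MUC5AC are lowest there, and FER1L6 is near 0 in every group but WT.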

How the data were processed

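RNA from 12 libraries of A549 cells was sequenced, 3 in each of 4 groups taken from the library names in the labels. Libraries from total RNA were stranded per the labels' protocols. The submitters' processing notes name Trim Galore 0.6.6, STAR 2.7.0d, featureCounts 2.0.1, edgeR 3.32.1 and the GRCh38 build. The authors deposited 1 table of raw counts per gene, 60617 Ensembl genes, with whole numbers and no normalisation. The annotation release is not given in the sources used here, nor whether counting used strand, so overlapping genes and close paralogs are uncertain. Symbols came from a gene name table (60261 identifiers), positions from GENCODE 29 (58542), and promoters from RefSeq (GRCh38.p14).

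Counts were fitted in R 4.3.3 with edgeR 4.0.16 (filterByExpr, TMM factors 0.912 to 1.055, robust quasi-likelihood F test, two-sided, 1 coefficient per group over all 12 libraries, Benjamini-Hochberg over the 18524 genes tested, threshold 0.05), and 42093 genes were left out. The contrasts were combined minus siARID1A, YTHDF1 KO minus WT, and their difference. The SE comes from the library SDs of log2 CPM with a prior count of 2. Genes with at most 3 counts in a group are given by counts, with an exact 95% counting interval or a floor of 3 counts over the group. The biological coefficient of variation was 9.44%. On simulated counts 88% of changes of 1 and 96% of changes of 2 on the log2 scale were recovered, with 3.665% false calls. Every simulated gene had the same spread, far fewer genes were changed than were called here, and no library stood apart. These shares are therefore not the error rates of the real comparison.

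The members, the lists and the alternatives were chosen with earlier results of these data known. Named genes were YTHDF1, ARID1A and 16 further genes of the study's themes, the 12 largest rises and 12 largest falls past the threshold with at least 10 CPM and no overlap, up to 5 members of each list with the smallest p, and the 8 most positive and 8 most negative differences between backgrounds. Some genes that this rule takes are not reported here. Any other gene was named after its value was seen. Alternatives were 6 libraries alone, RLE factors, library totals, no or a stricter filter (1 CPM in 3 libraries), a replicate block, a minimum change of 1 (glmTreat), no chromosome 2 genes, DESeq2 1.42.0 and leaving out each library. Same-numbered libraries of the 2 groups did not deviate together (r of -0.397, -0.038 and -0.032), and those of different number gave r from -0.263 to 0.356. No label pairs libraries by number, so the numbers were not taken as pairs. Replicates differed beyond sampling noise (chi-square per degree of freedom 7.03 to 13.7 in these 6 libraries); WT replicate 2 stood apart (mitochondrial share 4.85%, at least 6.81% elsewhere) and enters through the filter, the scaling, the shared spread and the comparison with WT.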

Additional observations from a re-analysis of the deposited data

Results flagged for a closer look

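The effect of YTHDF1 knockout in ARID1A-silenced cells was tested against its effect in unmodified cells, with edgeR's quasi-likelihood test of the difference over 18524 genes. The difference passed in the positive direction for 1644 genes and in the negative direction for 1523. The genes named in the report that passed are given here by that difference on the log2 scale, and no cause was tested.

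Among the targets and the interferon response, ARID1A differed by 0.38, B2M by 0.75, IFI27 by 1.46 and IFITM3 by 1.34. CGAS differed by -4.24 on few counts (adjusted p = 0.048), IFIT1 by -1.08, IFIT2 by -1.28, IFI6 by -1.07, IFI44 by -2.14 and OAS2 by -2.33. The p53 target CDKN1A differed by -1.17.

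Of the genes with large falls, CPS1 differed by -1.46, UPK1B by -2.92 and INHBB by -0.53, which fell further in silenced cells, and NTRK3 by 2.81 and TM4SF4 by 1.72, which fell less. The other strong positive differences were FER1L6 (8.65), PKDCC (2.98), ASS1 (2.57), TINAGL1 (2.39), IQGAP2 (2.19) and RHOV (2.0). FER1L6 was hardly present in any group but WT, so it had little left to fall in silenced cells. The other strong negative ones were ANKRD1 (-3.52), FGFBP1 (-2.96), MYPN (-2.89), PTGS2 (-2.84), FA2H (-2.50) and CPM (-2.35). ASS1 lies on chromosome 9, where WT stood apart as a whole. The ARID1A and CGAS differences were near the threshold and lost their call in several alternatives.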

How the results depend on the processing

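Under the alternatives other than a minimum change of 1, no named gene reversed and 208 of 221 stayed on their side of the threshold in all of them. The chromosome 2 median of -0.42 was -0.439 with the 6 libraries alone, -0.348 with library totals, -0.359 with no filter, -0.445 with a stricter filter and -0.437 to -0.416 when libraries were left out in turn. A minimum change of 1 (glmTreat) left 308 rises and 411 falls, and 87 of the 218 named genes called, by its construction. Leaving out each library gave 2832 to 3557 rises and 2739 to 3637 falls, and 1259 to 1733 positive and 1239 to 1758 negative differences between backgrounds. A replicate block gave 3307 rises, 3115 falls and 1549 and 1430 differences, with a chromosome 2 median of -0.422. Since no label pairs the libraries by number, this says nothing of weaker effects. The calls of YTHDF3, CGAS, PTGS2, FGFBP1, TINAGL1, RPL5, RPLP0, RPSA, HLA-DMB, MT-ND2, MT-ND5, MT-CYB and H1-2 were lost in at least 1 of those other alternatives, and the cause was not tested. The difference between backgrounds could not be run with 6 libraries, and glmTreat was not run on it or on the lists. Depth limits genes near 0 counts, where a fitted fold is no bound.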

Other observations

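Genes in none of the lists also changed strongly, and all of the following were chosen after their values were seen, among genes whose groups did not overlap. Several genes known from neurons and endocrine cells rose. UNC13A, a priming factor of synaptic vesicles, stood at 14.9, 13.4 and 16.1 CPM in siARID1A and 247, 269 and 301 in the combined group (4.199, SE 0.113, adjusted p = 4.04e-21), and NPTX1, neuronal pentraxin, at 49.5, 39.4 and 46.6 and 254, 268 and 265 (2.54, adjusted p = 2.76e-12). CHGB, a granule protein of endocrine cells, rose by 2.39 and the adhesion gene CADM2 by 3.49. Others of neuronal name fell: CPLX2, a complexin of synaptic vesicle release, went from 882, 696 and 919 to 150.4, 143 and 154 CPM (-2.48, SE 0.128, adjusted p = 1.6e-16), and DPYSL3 by -2.49. The neuronal markers SYP (1.28) and RBFOX3 (0.81) rose as well, and their part in these changes was not tested. No list of neuronal genes was counted, so no direction is given for them as a group.

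Genes of secreted signals moved as well. FST, which binds activin, rose from 12.1, 10.1 and 14.1 to 163, 185 and 169 CPM (3.83, SE 0.15, adjusted p = 1.12e-19), where the activin subunit gene INHBB fell. The Wnt antagonist SFRP1 rose from 25.7, 22 and 23.3 to 106, 116 and 112 CPM (2.23, adjusted p = 2.41e-17), and SFRP4, of the same family, fell from 19.5, 17 and 19.5 to 2.76, 2.7 and 2.77 (-2.77, adjusted p = 2.91e-15). The semaphorin genes SEMA3A and SEMA3F rose by 1.98 and 2.096. ABCG2, a drug efflux pump, fell from 54.8, 61.8 and 55 to 9.22, 8.77 and 9.88 CPM (-2.62, adjusted p = 1.12e-16) and CDH17, a cadherin of intestinal epithelium, by 2.46. CD38, an ectoenzyme that consumes NAD, rose from 16.7, 15.8 and 19.4 to 69.6, 64 and 70.1 CPM (1.97, adjusted p = 1.2e-14).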
